A study of Mus musculus with 6 samples.

Results

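The genes of the YAP, TAZ, TEAD and LATS branch of the Hippo pathway were examined for acetylation of histone H3 on lysine 27 (H3K27ac), a modification found at active promoters and enhancers, in mesothelial and epithelial cells of the fetal mouse lung. The 10 genes, out of 21883 protein-coding genes on chromosomes 1 to 19, X and Y, were chosen by their place in the pathway: Yap1, Wwtr1, Tead1, Tead2, Tead3, Tead4, Lats1, Lats2, Amotl2 and Vgll4. Earlier results of these data were known when they were chosen. The domain of a gene was its body in mm10 plus up to 50 kb on each side, ending midway to the next coding gene. Cells were profiled by CUT&RUN, in which a nuclease tethered by an antibody releases the chromatin that carries the mark. The 2 mesothelium libraries came from 25000 and 100000 PDPN+EPCAM-CD45-CD31-DAPI- cells, and the 2 epithelium libraries from 100000 and 200000 PDPN+EPCAM+CD45-CD31-DAPI- cells. All cells came from pooled lungs at E16.5, from matings of Myrf Fl/Fl mice for which the labels give no Cre driver and which the series text describes as wildtype. Each library has 1 deposited list of broad peaks. The 2 IgG libraries from epithelium were not analysed here, and no antibody background was subtracted in what follows.

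YAP1 and TAZ (the product of Wwtr1) are transcriptional coactivators that do not bind DNA themselves and act through the TEAD factors. The kinases LATS1 and LATS2 phosphorylate both coactivators and thereby hold them in the cytoplasm, while VGLL4 competes with them for TEAD and AMOTL2, a motin of cell junctions, binds YAP1. In the mouse lung YAP1 is known for its role in airway branching and in epithelial differentiation, and in human mesothelioma LATS2 is a recurrently lost gene.

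The mesothelium lists held 39006 and 41524 usable peaks and the epithelium lists 47869 and 46632. They hold no read counts, so depth is unknown, and a domain without a peak may still carry acetylation below the peak caller's minimum. The labels do not state whether replicates are separate pools of lungs. The p-values therefore reflect spread between libraries, which may be technical. The labels were checked against marker genes. Of 7 tested mesothelial markers, 4 had longer acetylated domains in mesothelium and none in epithelium, and of 7 tested epithelial markers, 6 were longer in epithelium (limma, adjusted p under 0.05). Over all tested domains, 1.39% were longer in mesothelium and 2.52% longer in epithelium by this test. The mesothelial marker Msln stood the other way without passing, with 0.544 and 0.893 kb in mesothelium against 1.19 and 4.29 kb in epithelium (limma adjusted p = 0.438), and Krt19 had an estimate of −0.24. Pdpn, the gene of the positive sort marker, went against the mesothelium gate, with 0.364 kb and no peak in mesothelium against 10.4 and 8.97 kb in epithelium. Epithelial markers summed to 25.3 kb in mesothelium replicate 1 and 3.69 kb in replicate 2, against 143.2 and 160.6 kb in epithelium. Endothelial markers summed to 16.4 and 11.6 kb in mesothelium against 4.49 and 6.33 kb in epithelium, with Tek and Kdr longer in mesothelium and Cdh5 without a peak there. Fibroblast markers summed to 16.2 and 21.2 kb in mesothelium against 3.67 and 2.75 kb in epithelium, and Col3a1 was the 1 of 5 tested that was longer in mesothelium. Of 6 immune markers none had enough acetylation to be tested. Csf1r, Cd68 and Cd3e each had acetylated length in a single mesothelium library and none in epithelium. Ptprc, Spi1 and Itgam each had it in a single epithelium library and none in mesothelium. The part of these other cell types in the values below was not tested, and fewer cells of a type cannot be told apart from less acetylation per cell.

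All 10 domains held peaks in every library, except that of Tead2 in mesothelium replicate 2, and none passed the test of a difference between mesothelium and epithelium. Acetylated length, the kilobases of a domain that lie under peaks, was compared on the log2(kb + 0.5) scale with limma and Benjamini-Hochberg adjustment over 10485 domains, and 3.91% of all tested domains passed at an adjusted p under 0.05, 1.39% longer in mesothelium and 2.52% longer in epithelium. All 10 genes had enough acetylated length to be tested, and 0 passed. None reached an unadjusted p under 0.05 either, and the limma result was 0 of the tested members in each of 16 other settings. In some of these settings hardly any domain could pass. A pseudocount of 0.1 kb left 1 domain over the genome, and keeping only peaks of at least 1 kb, or at or above 2 in −log10 q, left 0. In the main test the estimates were above 0, which means longer in mesothelium, for 3 genes and below 0 for 7. Their median log2 difference was −0.17, against 0.03 over all tested domains. With 2 libraries against 2 the smallest exact permutation p is 0.33, so no single-gene permutation test was made. Lengths did not overlap between the groups for 4 of the 10 genes before centring, against 47.8% of all tested domains. Of these 4, none of which passed the test, Wwtr1 had its higher values in mesothelium, and Tead3, Tead4 and Vgll4 had theirs in epithelium. The 95% intervals stayed within 2-fold in either direction for 2 genes, Yap1 and Tead1, and for the other 8 a difference of 2-fold is not excluded by the interval.

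**Figure D1:**
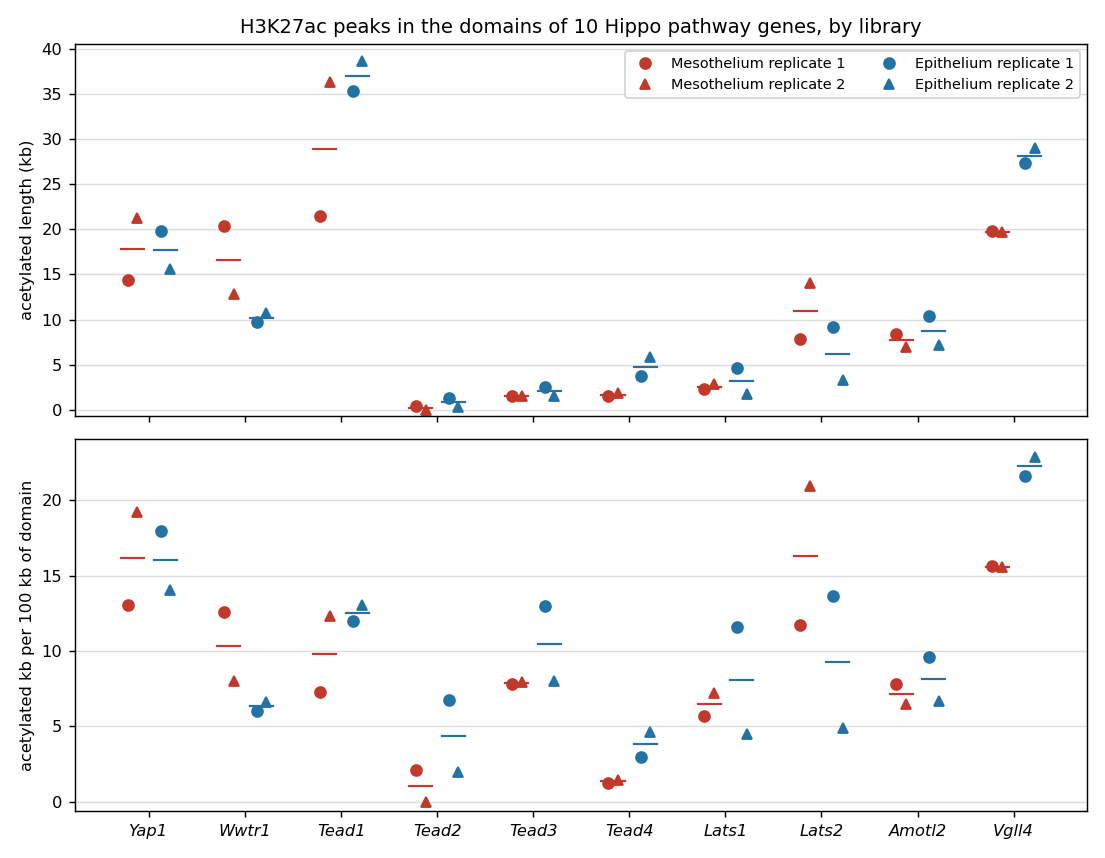
Acetylated length in kb (upper panel) and per 100 kb of domain (lower panel) of the 10 gene domains. Points are single libraries, circles for replicate 1 and triangles for replicate 2, with mesothelium in red left of epithelium in blue and bars at the means. Vgll4 and Yap1 stand highest per length and Tead2 and Tead4 lowest, and replicates of 1 cell type lie farther apart than the means of the cell types for all genes but Tead4 and Vgll4.

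Per length of domain, the genes fell into a wide order. Vgll4 was highest, with a mean of 18.9 kb of acetylated sequence per 100 kb over the 4 libraries, followed by Yap1 with 16.1, Lats2 with 12.8 and Tead1 with 11.2 kb per 100 kb, and the ranges of neighbours in this order overlapped. Tead3 had 9.18, Wwtr1 8.31, Amotl2 7.67 and Lats1 7.27 kb per 100 kb, and these 4 lay within the spread of their libraries. Tead2 and Tead4 were lowest, with 2.71 and 2.58 kb per 100 kb, and did not differ from each other beyond the spread. Among all coding-gene domains, tested or not, 8 of the genes lay between the 90.4th and 98.8th percentile of acetylated length per 100 kb, and Tead2 and Tead4 lay at the 70.2nd and 69.1st. The median of all these domains was 0.951 kb per 100 kb. That of tested domains alone was 3.21 kb per 100 kb, above Tead2 and Tead4. The median domain of the 10 genes was 109.2 kb long, against 69.0 kb for all tested domains.

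Acetylation at start sites was present in every library for some of the genes and in a few libraries for others. RefSeq start windows of GRCm38.p6, the assembly of mm10, span 250 bases before to 50 bases after a start site, and were at hand for 8 of the genes, not for Tead1 and Tead4. The windows of Wwtr1, Lats1 and Amotl2 lay under a peak in all 4 libraries, a pattern held by 6.04% of coding genes with a window. The Yap1 and Tead3 windows lay under a peak in both mesothelium libraries and in epithelium replicate 2. At Yap1 the peak of epithelium replicate 1 lay within the gene, more than 1 kb from the start site, and did not reach the window. The Lats2 window at 57746074 to 57746373 lay under a peak in mesothelium replicate 2 and both epithelium libraries, and its other window (57734369 to 57734668) in no library. The Vgll4 window lay under a peak in mesothelium replicate 1 alone, and the Tead2 window in epithelium replicate 1 alone. The merged peaks around the Vgll4 window (114966775 to 114969790) came from all 4 libraries. They covered 1.99 and 0.382 kb in mesothelium against 1.14 and 2.345 kb in epithelium. No gene had a start window under peaks of both libraries of 1 cell type and neither of the other, patterns that 2.82% of genes had for mesothelium and 1.21% for epithelium. 

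The start windows of Yap1, Wwtr1, Lats2 and Amotl2 are printed because each holds the core of the TEAD recognition sequence, and that of Tead2 because the element at its start site was limited to epithelium and the window holds no such core. Capitals mark GGAATG or its reverse complement CATTCC, and the letters run 5′ to 3′ in the direction of the gene.
Yap1, chr9:8004547-8004846, minus strand: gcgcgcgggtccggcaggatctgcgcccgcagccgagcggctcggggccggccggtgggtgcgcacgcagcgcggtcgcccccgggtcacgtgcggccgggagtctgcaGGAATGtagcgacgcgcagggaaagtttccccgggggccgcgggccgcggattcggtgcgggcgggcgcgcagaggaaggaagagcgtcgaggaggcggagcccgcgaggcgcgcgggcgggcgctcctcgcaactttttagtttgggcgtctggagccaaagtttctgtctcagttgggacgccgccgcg
Wwtr1, chr3:57575861-57576160, minus strand: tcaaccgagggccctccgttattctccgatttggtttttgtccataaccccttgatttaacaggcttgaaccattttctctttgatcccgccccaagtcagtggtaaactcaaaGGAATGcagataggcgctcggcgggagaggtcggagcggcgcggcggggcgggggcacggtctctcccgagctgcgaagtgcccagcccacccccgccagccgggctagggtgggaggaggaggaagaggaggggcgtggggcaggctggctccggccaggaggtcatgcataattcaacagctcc
Lats2, chr14:57746074-57746373, minus strand: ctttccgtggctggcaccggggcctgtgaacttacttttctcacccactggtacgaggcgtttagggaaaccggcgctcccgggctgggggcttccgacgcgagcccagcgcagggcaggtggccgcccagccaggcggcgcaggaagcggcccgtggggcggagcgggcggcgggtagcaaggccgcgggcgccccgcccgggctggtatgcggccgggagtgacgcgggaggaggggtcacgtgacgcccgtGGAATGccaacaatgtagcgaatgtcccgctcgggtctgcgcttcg
Amotl2, chr9:102717554-102717853, plus strand: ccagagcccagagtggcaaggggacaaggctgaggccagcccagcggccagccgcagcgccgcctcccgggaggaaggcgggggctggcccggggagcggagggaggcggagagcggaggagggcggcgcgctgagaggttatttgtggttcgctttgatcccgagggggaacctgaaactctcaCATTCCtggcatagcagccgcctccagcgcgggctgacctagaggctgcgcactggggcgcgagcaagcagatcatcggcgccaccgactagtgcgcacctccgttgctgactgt
Tead2, chr7:45215542-45215841, plus strand: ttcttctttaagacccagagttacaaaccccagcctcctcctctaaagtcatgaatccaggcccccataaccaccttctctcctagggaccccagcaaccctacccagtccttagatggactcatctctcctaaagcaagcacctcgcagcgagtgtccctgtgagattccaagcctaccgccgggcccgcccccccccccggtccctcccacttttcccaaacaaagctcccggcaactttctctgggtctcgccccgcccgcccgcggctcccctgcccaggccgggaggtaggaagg

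GGAATG was found on either strand in a start window of 6 of the 8 genes, namely Yap1, Wwtr1, Tead3, Lats2, Amotl2 and Vgll4, and was absent from those of Lats1 and Tead2. Over all 32851 start windows 14.7% hold it, and 16.6% of all genes have a window that does. Among the 1328 windows under a peak in all 4 libraries the share was 13.1%. Counted from the start site, with negative positions before it, the first base of the match lay at −141 in Yap1, −136 in Wwtr1, −82 in Vgll4, −65 in Amotl2 and 5 in Lats2. One Tead3 window held 3 matches. The AP-1 sequence TGANTCA, searched on both strands, was in no window of these genes, against 7.81% of all windows and 4.44% of those under a peak in all 4 libraries. The GC box CCGCCC, on either strand, was in a window of all 8 genes, against 38.2% of all genes with a window. Over all windows it was in 35.7%, and over those under a peak in all 4 libraries in 65.9%. In the windows of these genes no GGAATG match overlaps a GC box. A match of letters does not show binding.

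Of the coactivator genes, Yap1 did not separate the cell types, and Wwtr1 had more acetylated length in both mesothelium libraries without passing the test. Yap1 (chromosome 9, 7931999 to 8004638) carried 14.4 and 21.3 kb in mesothelium against 19.9 and 15.6 kb in epithelium. The epithelium libraries lay between the mesothelium libraries, and the log2 difference was 0.05 (SE 0.34, 95% interval −0.65 to 0.76, limma adjusted p = 0.962). Its sign turned without mesothelium replicate 2 (−0.12) and without epithelium replicate 2 (−0.11). Yap1 held 6 elements, merged intervals of overlapping peaks, in which every library had a peak, centred 0.942 to 42.9 kb into the gene. An element is measured whole, also where it runs past the domain. The widest of them spanned 10.1 kb (7956653 to 7966736) and carried 3.37 and 4.50 kb in mesothelium against 7.13 and 2.87 kb in epithelium. No element of Yap1 was present in both libraries of 1 cell type alone. A further element lay 101.3 kb downstream of the start site in the flank, present in mesothelium replicate 2 and both epithelium libraries, and held the strongest Yap1 peak of epithelium replicate 1, with a deposited −log10 q of 4.00.

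Wwtr1 (chromosome 3, 57455644 to 57575910) carried 20.4 and 12.9 kb in mesothelium against 9.71 and 10.7 kb in epithelium. Both mesothelium libraries lay above both epithelium libraries, which 22.4% of all tested domains also showed. The mean was 1.63 times as long in mesothelium, and the log2 difference of 0.70 did not pass (SE 0.39, 95% interval −0.12 to 1.52, limma adjusted p = 0.364). It was 0.33 without mesothelium replicate 1. Of its 29 elements, 23 were found in 1 library only, and 3 were present in all 4. At the start site an element of 3.94 kb (57572977 to 57576914) carried 3.20 and 2.77 kb in mesothelium against 2.26 and 2.00 kb in epithelium. The widest, of 4.42 kb, lay 64.5 kb into the gene (57509137 to 57513552) and carried 3.19 and 2.28 kb in mesothelium against 0.616 and 1.49 kb in epithelium. The third lay 103.8 kb into the gene, and in all 3 both mesothelium libraries had more under peaks than either epithelium library. The strongest Wwtr1 peak had a deposited −log10 q of 4.76 and 4.68 in mesothelium against 2.14 and 3.73 in epithelium, values that are ranked only within a library.

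**Figure D2:**
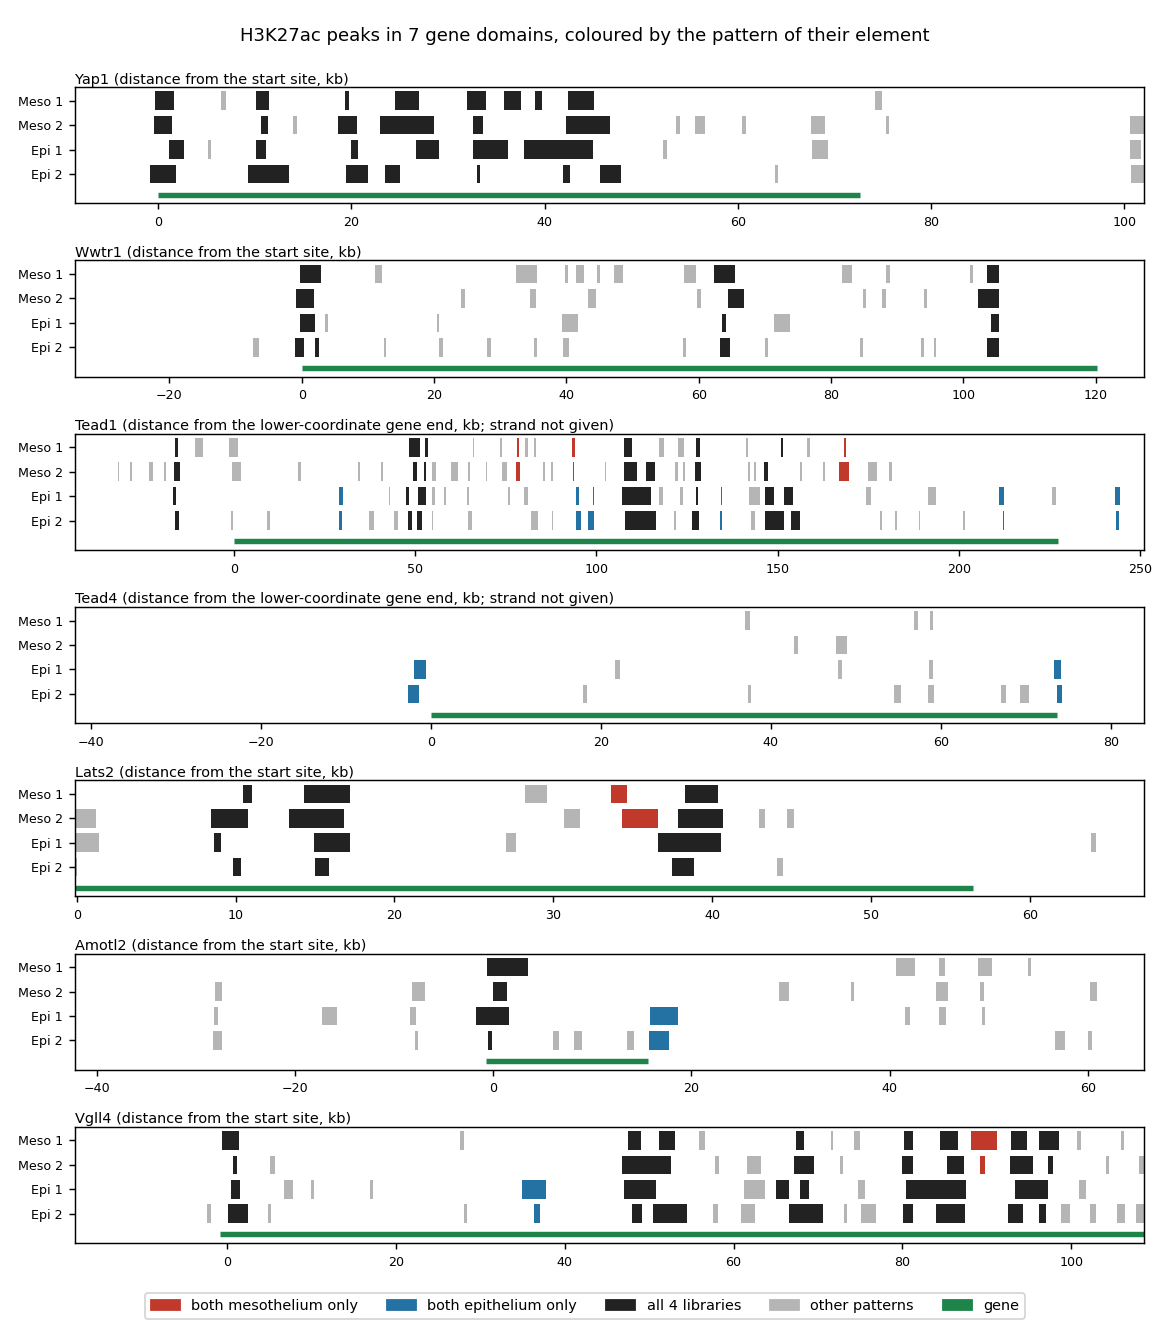
Peaks of each library in the domains of 7 of the genes, by distance in kb from the start site in the direction of the gene, or from the lower-coordinate gene end for Tead1 and Tead4. Rows are libraries, with mesothelium above epithelium, and colours give the pattern of the element a peak belongs to. Yap1 shows 6 elements present in all libraries and none limited to a cell type, while Tead1 shows 3 elements limited to mesothelium and 6 limited to epithelium.

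The TEAD genes encode the DNA-binding partners of YAP1 and TAZ, and all 4 had estimates below 0, which means longer in epithelium, without passing the test. Tead1 had the greatest acetylated length of the 10 genes and the most elements. Tead1 (chromosome 7, 112679356 to 112906784) carried 21.5 and 36.3 kb in mesothelium against 35.3 and 38.6 kb in epithelium. The groups overlapped, since mesothelium replicate 2 lay between the epithelium libraries and replicate 1 below both (log2 difference −0.34, SE 0.28, 95% interval −0.91 to 0.24, limma adjusted p = 0.563). Without mesothelium replicate 1 the difference was −0.01.

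Within Tead1 the elements of the 2 cell types stood side by side. It held 57 elements, of which 5 were present in all libraries, 3 in both mesothelium libraries only and 6 in both epithelium libraries only. An element of 9.82 kb (112825652 to 112835469), present in all libraries, carried 0.557 and 1.07 kb in mesothelium against 5.02 and 7.71 kb in epithelium. Another of 9.59 kb (112786312 to 112795899) carried 2.32 and 6.01 kb in mesothelium against 8.23 and 8.65 kb in epithelium. At the lower-coordinate end of the gene the opposite was seen, with 2.59 and 2.47 kb in mesothelium against no peak and 0.484 kb in epithelium (112677953 to 112681144). The elements limited to mesothelium lay within the gene, at 112757036 to 112758153, 112772730 to 112773348 and 112846187 to 112849038, and the last carried 0.472 and 2.85 kb. The widest of those limited to epithelium lay at 112777043 to 112778750 and carried 0.334 and 1.71 kb in epithelium, and it neighboured another at 112773633 to 112775193 with 0.603 and 1.56 kb. The latter began just above the mesothelium element that ended at 112773348. The remaining epithelium elements lay at 112708233 to 112709445, 112813401 to 112813923 and 112890349 to 112891948 within the gene and at 112922594 to 112923801 beyond its upper end. These single elements were read from the lists without a test.

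Tead4 (chromosome 6, 128227143 to 128300813), known in the mouse for its part in trophectoderm formation, carried 1.54 and 1.85 kb in mesothelium against 3.73 and 5.82 kb in epithelium. Both epithelium libraries lay above both mesothelium libraries, as they did in 25.5% of all tested domains. The mesothelium mean was 0.355 times the epithelium mean, the log2 difference of −1.18 did not pass (SE 0.62, 95% interval −2.46 to 0.10, limma adjusted p = 0.327). The difference was −0.12 when only peaks at or above 2 in −log10 q were kept and −0.56 over the gene body alone. Tead4 held no element present in all libraries. An element at its upper end (128300460 to 128301356) carried no peak in mesothelium against 0.784 and 0.529 kb in epithelium, and another just below its lower end (128224490 to 128226579) carried none in mesothelium against 1.39 and 1.26 kb in epithelium. Tead4 was the 1 gene of the 10 with peaks less than 1 kb from a gene end in both epithelium libraries and neither mesothelium library, a pattern of 2.02% of all coding genes.

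Tead2 and Tead3 have short domains of 19.6 and 19.8 kb, with a mean acetylated length of 0.530 and 1.82 kb against a median of 1.67 kb over all tested domains. Tead2 (chromosome 7, 45215792 to 45233468), which is known as an early embryonic TEAD gene in the mouse, carried 0.411 kb and no peak in mesothelium against 1.32 and 0.392 kb in epithelium (log2 difference −0.86, SE 0.90, limma adjusted p = 0.671). Its mean over the libraries, 0.530 kb, was just above the 0.5 kb needed for a test. The epithelium peaks formed 1 element of 1.54 kb at the start site (45215787 to 45217328), and the mesothelium peak lay elsewhere in the gene. Tead3 (chromosome 17, 28331671 to 28350805) carried 1.54 and 1.57 kb in mesothelium against 2.57 and 1.59 kb in epithelium (log2 difference −0.24, SE 0.68, limma adjusted p = 0.900). The mesothelium libraries and epithelium replicate 2 were nearly equal, and after centring the groups overlapped. Its start site element (28349572 to 28351950) was absent from epithelium replicate 1, which had the greatest length in the domain. The element ran past the domain into the neighbour Tulp1, 0.709 kb from Tead3, so it cannot be assigned to 1 gene.

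The LATS kinase genes differed in where acetylation lay. Lats1 (chromosome 10, 7681200 to 7716461) carried 2.28 and 2.89 kb in mesothelium against 4.64 and 1.81 kb in epithelium, and the groups overlapped (log2 difference −0.11, SE 0.64, limma adjusted p = 0.959). Without epithelium replicate 1 the sign turned, to 0.39. The 1 element present in all libraries spanned the start site (7680086 to 7683455) and carried 1.93 and 3.37 kb in mesothelium against 2.55 and 2.46 kb in epithelium. Pcmt1 overlaps Lats1 at this end by 138 bases, so the element cannot be assigned to 1 gene. Epithelium replicate 1 had further peaks of 0.867 and 1.70 kb within the gene that no other library shared. A further element of 0.873 kb (7687732 to 7688604), within the gene 7.0 kb from the start site, carried 0.550 and 0.635 kb in mesothelium and no peak in epithelium. The 1.70 kb peak of epithelium replicate 1 (7688612 to 7690309) began directly beside it without overlap, so the limit to mesothelium rests on the overlap rule.

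Lats2 (chromosome 14, 57689662 to 57746212), which is itself a target gene of YAP1 and TEAD, carried 7.88 and 14.1 kb in mesothelium against 9.17 and 3.30 kb in epithelium. Mesothelium replicate 2 was highest and epithelium replicate 2 lowest, while mesothelium replicate 1 lay below epithelium replicate 1. The log2 difference was 0.93 (SE 0.50, 95% interval −0.12 to 1.97, limma adjusted p = 0.346), and it was 0.26 without epithelium replicate 2. Lats2 held 3 elements present in all libraries, the widest of 4.06 kb at 57705455 to 57709515, with 2.06 and 2.84 kb in mesothelium against 3.99 and 1.41 kb in epithelium. Directly beside it lay an element of 2.93 kb (57709550 to 57712475) that carried 1.01 and 2.24 kb in mesothelium and no peak in epithelium. Since epithelium replicate 1 covered most of the shared element next to it, this limit to mesothelium also rests on the overlap rule. At the start site mesothelium replicate 1 had no peak, replicate 2 had 1.86 kb, and the epithelium libraries had 2.32 and 0.594 kb. The predicted coding gene Gm52140 overlaps 7626 bases of Lats2 at the start site end, so the start site element cannot be assigned to 1 gene.

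Amotl2 and Vgll4 encode regulators of the coactivators and of TEAD. Amotl2 (chromosome 9, 102717091 to 102733418) carried 8.44 and 6.997 kb in mesothelium against 10.4 and 7.22 kb in epithelium (log2 difference −0.10, SE 0.45, 95% interval −1.04 to 0.84, limma adjusted p = 0.939). The groups overlapped, and the sign turned without mesothelium replicate 2 (0.12) or epithelium replicate 1 (0.06). The gene fills 16.3 kb of its 107.8 kb domain, and 31.6% of the acetylated length lay within it. The start site element of 5.30 kb (102716048 to 102721349) carried 4.19 and 1.44 kb in mesothelium against 3.41 and 0.450 kb in epithelium. Just beyond the end of the gene, 17.2 kb from the start site, an element of 3.01 kb (102733491 to 102736498) carried no peak in mesothelium against 2.92 and 2.04 kb in epithelium.

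Vgll4 (chromosome 6, 114860621 to 114970007) carried 19.8 and 19.7 kb in mesothelium against 27.3 and 29.0 kb in epithelium. Replicates were close, averaging 19.7 ± 0.0290 kb in mesothelium against 28.1 ± 1.17 kb in epithelium (SD, n = 2 libraries each), and the epithelium libraries lay above the mesothelium libraries. The mean in mesothelium was 0.701 times that in epithelium, and the log2 difference of −0.44 did not pass with the spread that limma shares over all domains (SE 0.29, 95% interval −1.05 to 0.17, adjusted p = 0.463). It stayed between −0.66 and −0.25 in the 16 other settings. Of its 27 elements, 5 were present in all libraries, and 4 of these lay 50.7 to 95.5 kb into the gene and the other over the start window. The widest (114914699 to 114922404, 7.71 kb) carried 3.43 and 5.85 kb in mesothelium against 3.81 and 5.32 kb in epithelium, and the next (114881705 to 114889223, 7.52 kb) carried 3.17 and 3.22 kb in mesothelium against 7.04 and 4.56 kb in epithelium. An element at 114878033 to 114881011 carried 2.98 and 0.561 kb in mesothelium and no peak in epithelium. An element at 114931387 to 114934319 carried no peak in mesothelium against 2.93 and 0.701 kb in epithelium.

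Across the 10 domains, elements present in all libraries and elements limited to a cell type were both found. The domains held 183 elements, and 77 of these were present in at least 2 libraries. Of the 77, 24 were present in all 4 libraries (31.2%), 6 in both mesothelium libraries only (7.79%) and 11 in both epithelium libraries only (14.3%). Over the whole genome, the shares among 25436 such elements were 16.8%, 13.5% and 17.2%. A mesothelium-only element was held by 4 of the 10 domains, against 20.2% of all tested domains, and an epithelium-only element by 5, against 22.8%. An element present in all libraries was held by 7 of the 10, all but Tead2, Tead3 and Tead4, against 32.4% of all tested domains. Domain length ran from 19.6 kb for Tead2 to 294.9 kb for Tead1, and the part of domain length in these shares was not tested. All 6 mesothelium-only elements and 6 of the 11 epithelium-only elements lay within a gene, touching neither its ends nor a start window. So did 146 of all 183 elements, and 18 of the 24 present in all libraries. For Tead1 and Tead4, which had no start window at hand, only the gene ends could be considered. Elements present in all libraries had a median width of 4.33 kb, against 1.98 kb for mesothelium-only and 1.56 kb for epithelium-only elements. Over the whole genome these medians were 3.13, 1.52 and 1.59 kb. An element merges the peaks of its libraries, so its width and the number of libraries are linked by definition.

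These counts depend on each library. A pattern needs fewer libraries when 1 is left out, and mesothelium-only elements then numbered 42 without mesothelium replicate 1 and 29 without replicate 2, and 10 without epithelium replicate 1. Epithelium-only elements numbered 43 without epithelium replicate 1, 34 without replicate 2 and 19 without mesothelium replicate 2. Elements present in all remaining libraries numbered 26 to 32, fewer than the sum of mesothelium-only and epithelium-only elements in each of these 4 settings. Keeping peaks at or above 2 in −log10 q left 3 mesothelium-only, 1 epithelium-only and 6 shared elements.

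**Figure D3:**
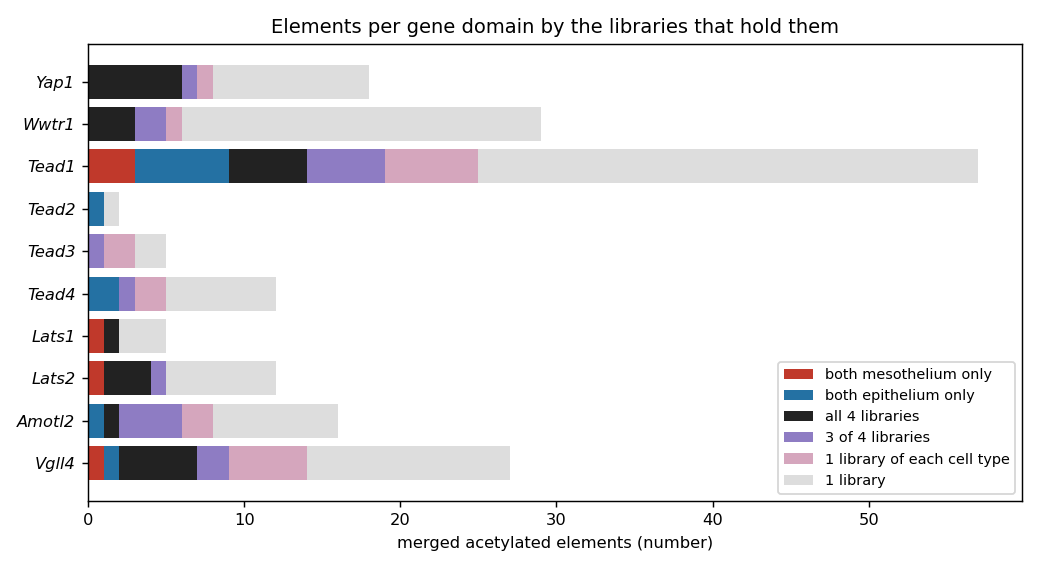
Number of merged acetylated elements in each gene domain, coloured by the libraries in which the element has a peak. Tead1 holds the most elements, 57, and Yap1 the most that are present in all 4 libraries, 6, while Tead2, Tead3 and Tead4 hold none of that kind.

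Within the 10 domains the overlap of acetylated bases between cell types came close to that within them. The Jaccard index, the bases under peaks in both of 2 libraries divided by those under peaks in either, reached 0.253 between the mesothelium libraries and 0.238 between the epithelium libraries over the 10 domains together. For the 4 pairs of a mesothelium and an epithelium library it lay between 0.178 and 0.243, and mesothelium replicate 2 with epithelium replicate 1, both from 100000 cells, was above the epithelium pair. Over the whole genome the pairs of a cell type, at 0.132 and 0.140, lay above every mixed pair, at 0.0912 to 0.102. No test was made on these 6 indices, which share libraries.

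**Figure D4:**
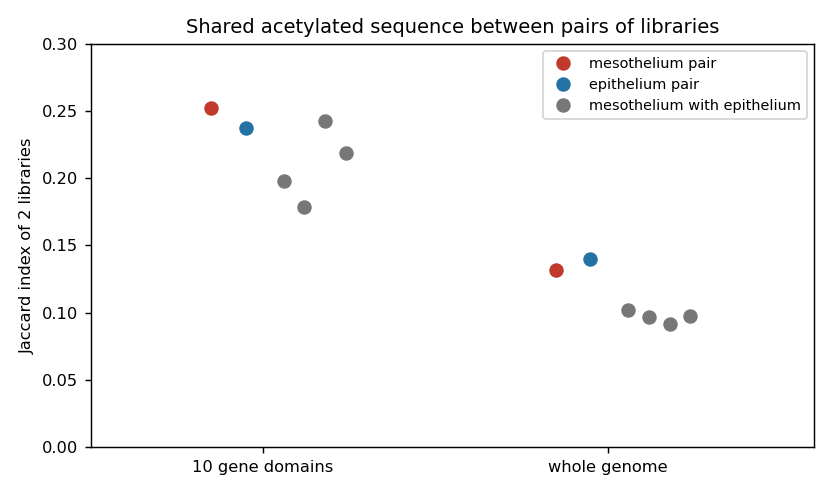
Jaccard index of the acetylated bases for each pair of libraries, over the 10 gene domains (left) and the whole genome (right). Within the 10 domains the mixed pairs, in grey, reach 0.243, above the epithelium pair at 0.238, whereas over the genome they lie below both pairs of 1 cell type.

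The strength of the best peak differed between the genes. The strongest peak of Yap1 ranked at the 97.1st and 84.0th percentile of −log10 q in the mesothelium lists and at the 98.8th and 96.0th in the epithelium lists. That of Wwtr1 ranked at the 99.4th and 97.3rd in mesothelium and at the 80.5th and 98.2nd in epithelium. The best peak of Tead2 ranked low, at the 2.11th percentile in mesothelium replicate 1 and at the 53.1st and 45.8th in epithelium. The peaks to choose from numbered between 0 for Tead2 and 34 for Tead1, both in mesothelium replicate 2.

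The rest of the pathway was read from 4 lists of 65 genes, with Ptpn14 among both the upstream regulators and the target genes. Over all tested domains, to be set beside the counts below, 1.39% passed as longer in mesothelium and 2.52% as longer in epithelium. The median log2 difference over all tested domains was 0.03. Among 11 other kinases and adaptors, which include the LATS-related kinase genes Stk38 and Stk38l, all were tested, 0 passed as longer in mesothelium and 1 passed as longer in epithelium (median log2 difference 0.36). That gene was Taok3, a TAO kinase that can activate the Hippo kinases, with no peak and 1.31 kb in mesothelium against 9.01 and 6.64 kb in epithelium (log2 difference −3.06, SE 0.70, limma adjusted p = 0.013). The Hippo kinase Stk3 carried 18.1 and 21.5 kb in mesothelium against 10.3 and 8.90 kb in epithelium (limma adjusted p = 0.113), and its paralogue Stk4 carried 2.03 and 1.71 kb in mesothelium against 7.35 and 3.70 kb in epithelium (limma adjusted p = 0.302). Sav1, which encodes their scaffold, had a log2 difference of 1.88 (limma adjusted p = 0.177), and Mob1a and Mob1b had 1.31 and −0.33. 

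Of 19 tested genes for upstream regulators and scaffolds, 0 passed as longer in mesothelium and 1 as longer in epithelium, with a median of 0.26. That gene was Wwc1, which encodes KIBRA, an activator of LATS, with 11.7 and 8.02 kb in mesothelium against 43.6 and 48.1 kb in epithelium (log2 difference −2.12, SE 0.32, limma adjusted p = 0.00075). The estimates were below 0 for the cadherin gene Fat1 (−0.94) and above 0 for Fat4 (1.67), Csnk1d (0.80) and Ptpn14 (0.56), and none of these passed. Fat1 passed without mesothelium replicate 1 (limma adjusted p = 0.037). 

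Of 8 tested genes for other cofactors, 0 passed as longer in mesothelium and 1 as longer in epithelium, with a median of 0.00. Runx1, a RUNT-domain factor, carried 2.87 and 0.721 kb in mesothelium against 12.3 and 25.0 kb in epithelium (log2 difference −3.09, SE 0.59, limma adjusted p = 0.0039). Fosl2, Ywhab and Ywhaz had estimates of 0.86, 0.62 and 0.62, and Tgif1 and Runx2 of −0.59 and −0.70. None of these 5 passed.

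Of 19 tested YAP and TAZ target genes, 2 passed as longer in mesothelium and 0 as longer in epithelium, with a median of 0.45. Over all tested domains 1.39% and 2.52% passed in these directions, with a median of 0.03. Asap1, which encodes an ARF GTPase-activating protein, carried 25.1 and 26.98 kb in mesothelium against 5.87 and 3.48 kb in epithelium (log2 difference 2.46, SE 0.41, limma adjusted p = 0.0013). Crim1, which encodes a membrane protein that binds BMPs, carried 4.91 and 11.4 kb in mesothelium against no peak and 0.580 kb in epithelium (log2 difference 3.51, SE 0.71, limma adjusted p = 0.0066). The classical target Ccn2 had a log2 difference of −2.05 and did not pass (limma adjusted p = 0.159). Tgfb2 carried 11.8 and 17.5 kb in mesothelium against 33.4 and 30.0 kb in epithelium, short of the threshold (limma adjusted p = 0.061, and 0.0027 without mesothelium replicate 2). Rbms3 and Nuak2 had estimates of 0.61 and −1.28 and did not pass. Taok3 lost its call without epithelium replicate 1 or 2 (limma adjusted p = 0.091 and 0.052), Runx1 without epithelium replicate 2 (0.080) and Crim1 without mesothelium replicate 2 (0.066). All 5 genes that passed, Wwc1 and Asap1 included, lost their call with a pseudocount of 0.1 kb and with either stricter choice of peaks. This loss was not particular to them, since 1, 0 and 0 domains passed over the genome in these settings. Over these 3 settings Wwc1 had log2 differences of −2.76 to −2.16 (limma adjusted p = 0.074 to 0.162) and Asap1 of 2.57 to 4.11 (limma adjusted p = 0.063 to 0.162).

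**Figure D5:**
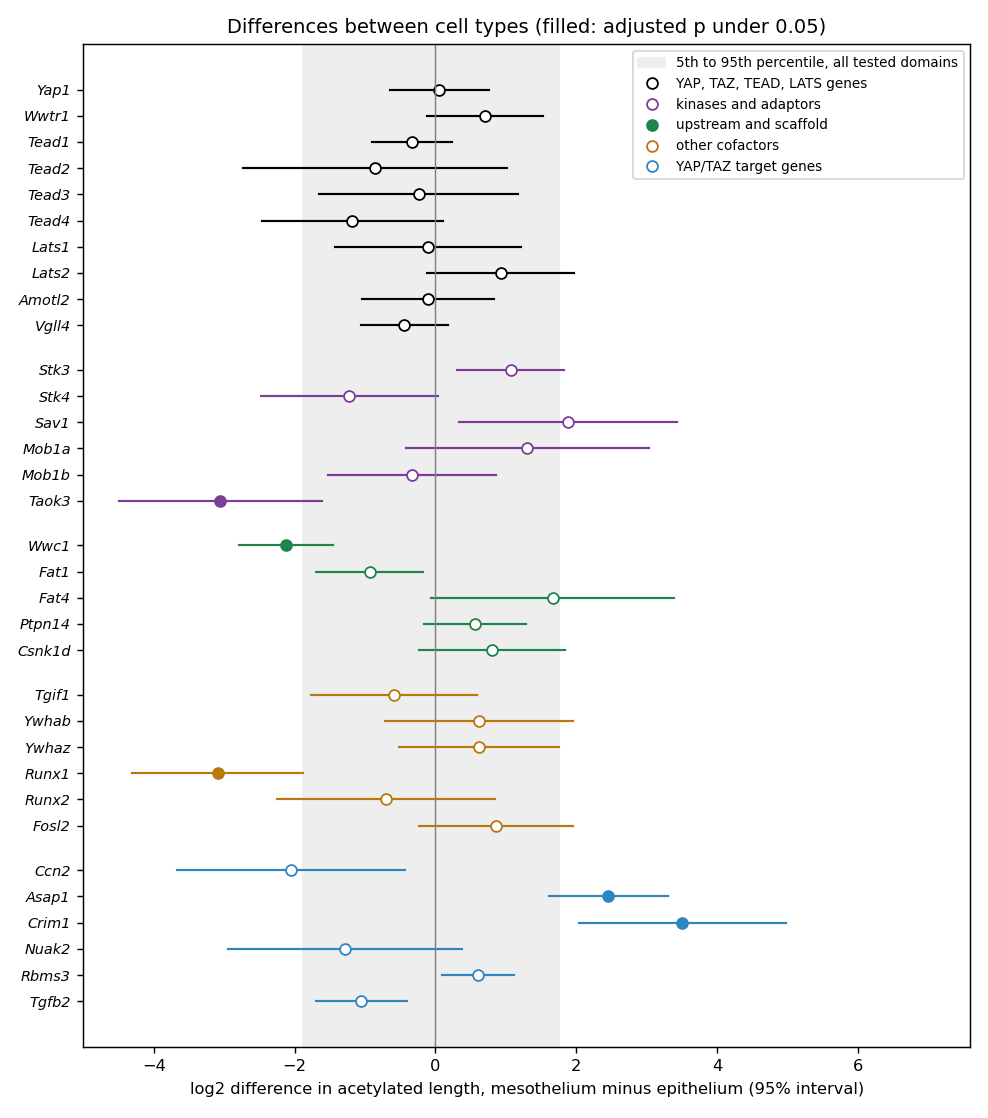
Log2 difference in acetylated length, mesothelium minus epithelium, with its 95% interval, for the 10 genes (top) and for the genes of the other Hippo lists named in the text. Filled points passed at an adjusted p under 0.05 and the grey band spans the 5th to 95th percentile of all tested domains, −1.88 to 1.75. All 10 upper points are open and lie inside the band, and the filled points are Taok3, Wwc1, Runx1, Asap1 and Crim1.

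Genes whose 4 values lay close to those of Tead4 and Lats2, the 2 genes with the largest differences on the scale used throughout, were found by root-mean-square distance of centred log2 values. For Tead4 they were Capn8, Mphosph6 and Atp1b3, at distances of 0.17, 0.21 and 0.22. For Lats2 they were Nsd1 and Agap1, at 0.13 and 0.19.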

How the data were processed

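H3K27ac CUT&RUN was done on sorted cells with a commercial kit and paired-end sequencing, per the labels' protocols. Tools named in the submitters' processing notes include cutadapt 4.8, Bowtie2 2.5.3, MACS2 2.2.9.1 and the build mm10, without roles. For the caller, threshold and control: not given in the sources used here. The authors deposited 1 list of broad peaks per library, with a score (10 times −log10 q, not used), a ratio (fold enrichment over the caller's background, not printed), a −log10 p and a −log10 q.

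Peaks on other sequences were left out (1 to 8 per library). Gene positions and start windows came from RefSeq tables of GRCm38.p6, where all listed symbols matched. Covered kb per domain was log2-transformed after adding 0.5 kb, centred on the median of domains with a peak in all 4 libraries, and tested with limma 3.58.1 (R 4.3.3, intensity trend) where the mean length reached 0.5 kb. Elements merge peaks that overlap by at least 1 bp, and peaks of different libraries in an element need not share bases. Depth is unknown, so no counting interval was given. Groups came from sample titles. Python 3.11.15, pandas 2.3.3 and numpy 2.4.6 were used. Other genes were named as the 3 smallest p-values per list and direction, with any that passed, and genes that this rule or the likeness measure names but the text does not are not reported here. Named elements are the widest shared one and every one limited to a cell type; others were chosen after their values were seen. The members and lists were chosen with earlier results of these data known. Alternatives covered the pseudocount, length filter, scaling, peak threshold and width, equal peak numbers, domain size, merging, gene-end window, replicate block and leaving out each library.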

Additional observations from a re-analysis of the deposited data

How the results depend on the processing

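None of the 10 genes passed in any of 16 alternatives, while the number of domains that passed over the genome varied. The 146 domains longer in mesothelium and 264 longer in epithelium became 1 and 0 with a pseudocount of 0.1 kb (1654 domains at an unadjusted p under 0.05), 85 and 121 when scaled to total covered length, 92 and 123 after quantile normalization, and 0 and 0 when only peaks at or above 2 in −log10 q were kept (963 domains at an unadjusted p under 0.05 by limma) or only peaks of 1 kb or more (1649 domains). Leaving out 1 library gave 109 to 172 domains longer in mesothelium and 80 to 470 longer in epithelium. The pseudocount of 0.1 kb and both stricter peak sets also ended the calls of Wwc1, Taok3, Runx1, Asap1 and Crim1, and scaling to total length ended that of Taok3. The replicate number as a block gave 202 and 339 domains and 0 of the 10 genes. Same-numbered libraries did not deviate together (correlation 0.03 across domains), and the numbers were not taken as pairs. The block gave Tgfb2 an adjusted p of 0.048 by limma. Over all tested domains, the stricter −log10 q moved the median to 0.30, against 0.03.

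The size of an estimate moved too, from −1.55 to −0.12 for Tead4 and from −1.82 to −0.33 for Tead2. Signs that turned belonged to genes that did not pass. Yap1 turned to −0.69 under the stricter −log10 q, −0.12 from peaks of 1 kb or more and −0.033 with equal peak numbers, and ranged from −0.12 to 0.28 when 1 library was left out. Amotl2 turned to 0.89 and 0.12 in the first 2 of these and to 0.086 with the gene body alone, and ranged from −0.35 to 0.12 when 1 library was left out. Lats1 ranged from −0.68 to 0.39 and Runx2 from −1.94 to 0.58 when 1 library was left out. Mob1b turned to 0.62 under the stricter −log10 q, 0.070 with 5 kb flanks and 0.30 with the gene body alone, and Tgif1 and Nuak2 to 1.62 and 0.058 under the stricter −log10 q. Estimates of the 4 TEAD genes, Wwtr1, Lats2 and Vgll4 kept their sign in every alternative that tested them. The values nearest 0 were −0.014 for Tead1 and −0.044 for Tead3. The alternatives use the same 4 libraries and are not independent. Tead2 was tested in 12 and Tead3 in 15.

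The stricter −log10 q left 3 mesothelium-only, 1 epithelium-only and 6 shared elements. Leaving out 1 library gave 9 to 42 mesothelium-only, 15 to 43 epithelium-only and 26 to 32 shared elements. Gene-end peaks, within 1 kb, were in all libraries at 4 of the 10 genes and limited to epithelium at 1. Over all coding genes these patterns were held by 10.9% and 2.02%. The counts among the 10 genes became 7 and 2 within 2.5 kb, and 2 and 0 under the stricter −log10 q. Without 1 library they were 4 to 7 and 1 to 2, and 0 to 3 were limited to mesothelium. Peak lists give no depth, so acetylation below the caller's minimum was not detectable in any library.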
